A study of Danio rerio with 2 samples.

Results

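Genes of mitosis and chromosome segregation were compared between swim-trained and untrained zebrafish larvae by 2-colour microarray. The set held 42 genes of known function, chosen with earlier results of these data known, and probes were assigned to them through the transcript accession that the array design gives for each probe. Of these, 32 had a probe among the 12900 genes that could be named on the array, and all 32 were measured, out of 11121 genes measured in all. The 10 members with no probe paired here were bub1, bub1bb, cenpf, tpx2, incenp, ncapg, top2a, espl1, pttg1 and mki67, and they are not analysed here.

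The trained pool held RNA from 10 wild-type larvae aged 10 days after fertilisation, which had swum in daily sessions of 3 hours from day 5 to day 10. The control pool held RNA from 10 untrained larvae of the same age, and both pools came from a cross given as Wageningen wild type X Tubingen wildtype (Zod2). Whole larvae were extracted and sampled at the end of the day, so all tissues are mixed. Both pools were hybridised on 2 arrays of the same slide, with trained RNA in Cy5 and control RNA in Cy3 on array 1 and the dyes exchanged on array 2.

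The arrays are a technical repeat of 1 pool per condition, so there are no biological replicates and no p-value, standard deviation or standard error across fish can be given. A gene was described as lower or higher in the trained pool when its ratio had that direction on both arrays, and a size rule asked in addition that both ratios reach 1.2-fold, or 1.5-fold. All intensities below are background-corrected and normalised, and each gene is represented by its brightest probe that was well above background in both channels of both arrays. All ratios are log2 ratios of trained over control. In whole larvae, fewer dividing cells and less transcript per dividing cell cannot be told apart.

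Entry into mitosis is driven by cyclin-dependent kinases bound to A- and B-type cyclins, with Aurora and Polo-like kinases acting beside them. Condensin and topoisomerase compact the chromosomes, cohesin holds sister chromatids together, and kinesins build and use the spindle. The spindle checkpoint delays anaphase until kinetochores are attached, after which a ubiquitin ligase and its activator Cdc20 trigger the loss of cohesion. Transcripts of many of these genes accumulate late in the cell cycle and are therefore widely used as markers of dividing cells, which in larval fish lie in growth zones of the eye, brain, gut, blood-forming tissue and skin.

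Most mitosis genes were lower in the trained pool in the reported processing, and each difference was small. The median ratio over the 32 measured members was -0.26, with -0.23 on array 1 and -0.23 on array 2. Over all measured genes the median was 0.00 on array 1 and 0.02 on array 2. On both arrays 21 members were lower, or 65.6% of them, against 22.1% of all measured genes. Since the genes were not chosen independently of these arrays, that contrast is a description. In the other direction 2 members were higher on both arrays, against 24.3% of all genes. The remaining 9 members, 28.1%, were opposite on the arrays, as were 53.6% of all genes. With median centring in place of loess 12 members were lower, or 37.5%, beside 12.6% of all genes. There 3 members were higher, beside 24.4% of all genes. The share of lower genes among members of like direction was 80% with median centring, against 91.3% as reported. Of the 21 members lower as reported, 10 were lower on both arrays there too. The same share over all genes was 34.1% with median centring and 47.6% as reported.

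By the 1.2-fold rule 6 members were lower, 18.8% of them, against 1.35% of all genes, and none was higher, against 3.74% of all genes. They were zwilch, kif11, esco2, cdc20, ttk and birc5a. All of these but cdc20 rested on 1 measured probe each. Under the deposited ratios 6 members also passed as lower, beside 2.33% of all genes. Of these 6, 4 were in this list: ttk and esco2 no longer passed, while kif20a and kif23 did. In addition kif11 did not pass without background correction, nor cdc20 over the mean of its probes. At 1.5-fold no member passed in either direction, and the rule itself passed 0.054% of all genes lower and 0.638% higher. Each array alone placed 14 members at least 1.2-fold lower, against 15.6% of all genes on array 1 and 13.3% on array 2. With median centring no member passed the 1.2-fold rule, and 0.432% of all genes did so in the lower direction. By mean ratio the median member lay at percentile 5.65 of all measured genes, and the lowest member at percentile 0.288. The mean was below 0 in 27 members and above 0 in 5, while it was below 0 in 5642 of all 11121 genes.

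**Figure D1:**
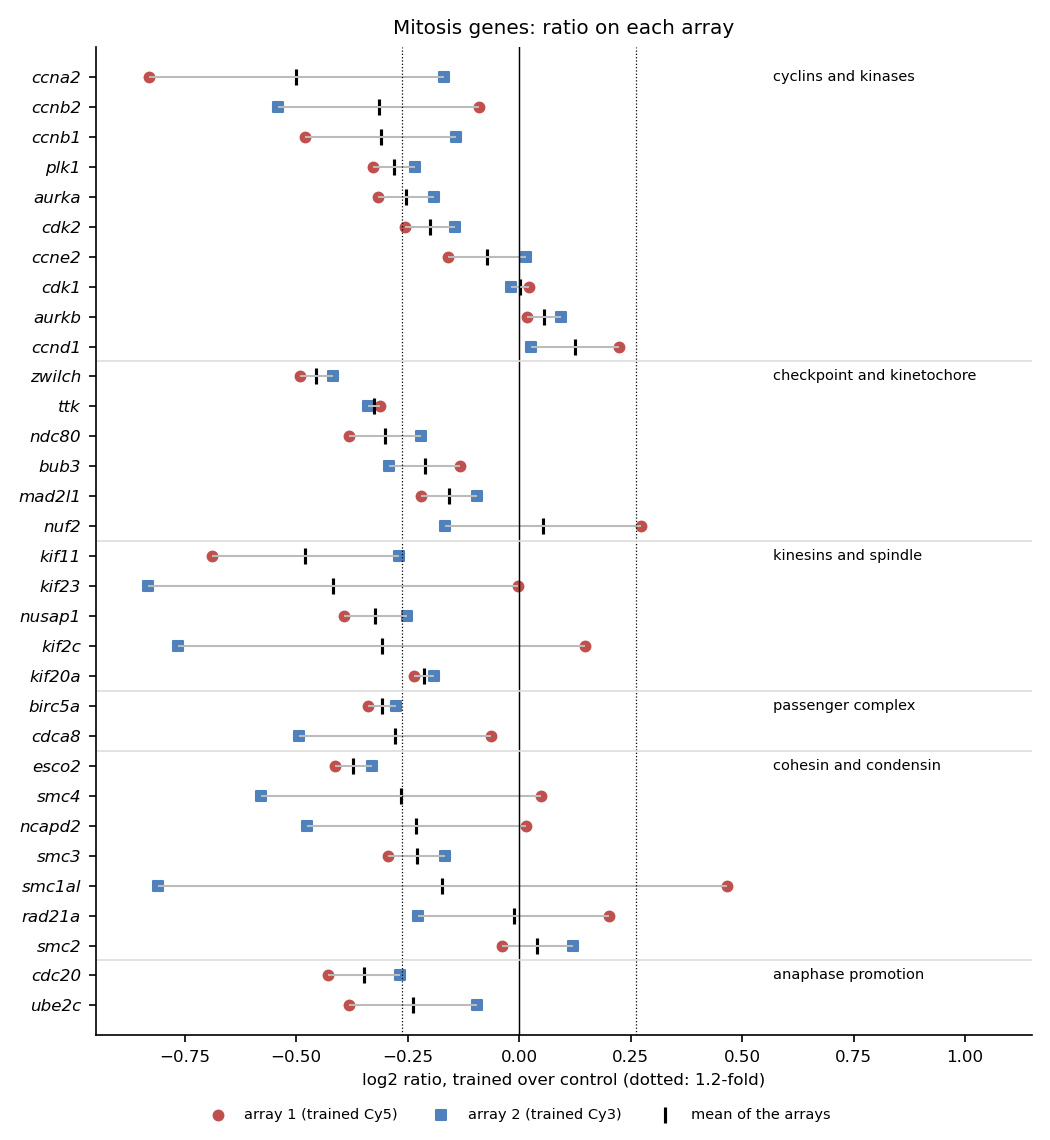
Log2 ratio of trained over control for the 32 measured members on array 1 (circles) and array 2 (squares), with the mean of the arrays (vertical bars) and role groups separated by grey lines. Most means lie left of 0, at a median of -0.26, while members such as smc1al and kif2c have their arrays on either side of 0.

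Among cyclins and kinases 6 of 10 members were lower on both arrays, 2 were higher and 2 were opposite, with a median ratio of -0.23. The shares were 60% lower and 20% higher, beside 22.1% and 24.3% of all genes. The lowest member of the whole set was ccna2, cyclin A2, which acts in S phase and at mitotic entry. Its intensity was 1456 on array 1 and 1959 on array 2 in the trained pool, against 2588 and 2203 in the control pool. The trained value thus lay below the control value on each array. The ratios were -0.83 and -0.17, so the size came mainly from array 1, and the mean of -0.50 corresponds to 1.41-fold lower in the trained pool. With median centring ccna2 was opposite on the arrays. Both other probes of ccna2 were also lower on both arrays, with means of -0.32 and -0.17.

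The B-type cyclins activate the mitotic kinase itself. For ccnb1 the trained pool gave 2560 and 2331 on arrays 1 and 2, against 3569 and 2571 in the control pool. Its ratios were -0.48 and -0.14, with a mean of -0.31, and all 6 of its probes were lower on both arrays, with means of -0.35 to -0.17. With median centring ccnb1 was not lower on both arrays. The trained pool gave 717 and 727 for ccnb2, against 763 and 1058 in the control pool. The ratios of ccnb2 were -0.09 and -0.54, and here the size came from array 2. Its second probe was opposite on the arrays with a mean of 0.10, so the probes of ccnb2 did not share a direction.

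Polo-like kinase 1, plk1, drives centrosome maturation and mitotic entry. In the trained pool it gave 1572 and 1649, against 1972 and 1940 in the control pool, for ratios of -0.33 and -0.23. Aurora A, aurka, acts at spindle poles and had 1405 and 1474 in the trained pool, against 1749 and 1683 in the control pool. The arrays placed aurka at -0.32 and -0.19. With median centring neither plk1 nor aurka was lower on both arrays. The S-phase kinase gene cdk2 stood at -0.26 and -0.14, with intensities of 1365 and 1563 in the trained pool and 1629 and 1727 in the control pool. Under the deposited ratios cdk2 was opposite on the arrays, at -0.39 and 0.05, and with median centring it was not lower on both.

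The gene of the catalytic partner of the mitotic cyclins, cdk1, had no settled direction and rested on 1 probe. For cdk1 the trained pool gave 1832 and 1671, against 1806 and 1692 in the control pool, and the ratios were 0.02 and -0.02. Its mean was -0.08 under the deposited ratios and 0.06 with median centring. Without background correction cdk1 was lower on both arrays. Aurora B, aurkb, the kinase of the chromosomal passenger complex, was slightly higher on both arrays, at 0.02 and 0.09. Its intensities were 3357 and 3064 in the trained pool and 3318 and 2871 in the control pool. Under the deposited ratios aurkb was lower on both arrays, at -0.20 and -0.05, so its direction depended on the processing.

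Cyclin D1, ccnd1, which responds to growth factors and acts before S phase, was the highest member. Its brightest probe gave 5589 and 4145 in the trained pool, against 4784 and 4068 in the control pool, for ratios of 0.22 and 0.03 and a mean of 0.13. The other 3 probes of ccnd1 had means of -0.06 to -0.02, and averaged over its probes the gene stood at -0.0046. No direction is therefore given for it. Cyclin E2, ccne2, which acts at the start of S phase, was opposite on the arrays, at -0.16 and 0.02, with 143 and 145 in the trained pool and 159 and 144 in the control pool.

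Of 6 measured checkpoint and kinetochore genes 5 were lower on both arrays and 1 was opposite, with a median of -0.26. The lower share was 83.3%, beside 22.1% of all genes. The gene zwilch encodes a subunit of the complex that brings dynein and checkpoint proteins to kinetochores. It gave 723 and 788 in the trained pool, against 1018 and 1052 in the control pool. Its ratios of -0.49 and -0.42 were close on the arrays, and the mean of -0.45 was 1.37-fold lower. The checkpoint kinase gene ttk had 1097 and 1200 in the trained pool and 1362 and 1520 in the control pool, with ratios of -0.31 and -0.34. In both cases the trained value lay below the control value on each array.

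The outer kinetochore gene ndc80, whose product binds spindle microtubules, had 954 and 1008 in the trained pool and 1243 and 1173 in the control pool. It stood at -0.38 and -0.22, but was not lower on both arrays with median centring. Its partner in the same complex, nuf2, was opposite on the arrays at 0.27 and -0.17, with 3031 and 2143 in the trained pool and 2509 and 2406 in the control pool. The 3 probes of nuf2 had means of -0.20 to 0.06, so ndc80 and nuf2 did not share a measured direction. The checkpoint genes bub3 and mad2l1, whose products hold Cdc20 inactive, had smaller ratios. For bub3 these were -0.13 and -0.29, with 1962 and 2112 in the trained pool and 2150 and 2585 in the control pool. The deposited ratios of bub3 were opposite, at 0.20 and -0.38, and so was the mean over its probes. For mad2l1 they were -0.22 and -0.10, with 2110 and 2328 in the trained pool and 2459 and 2487 in the control pool. With median centring mad2l1 was not lower on both arrays.

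All 5 measured spindle genes had mean ratios below 0, as had 5642 of all 11121 genes. On both arrays 4 of the 5 were lower, or 80%, beside 22.1% of all genes, with a median of -0.32. The motor gene kif11 encodes the kinesin that pushes spindle poles apart. Its intensities were 1584 and 2044 in the trained pool, against 2556 and 2462 in the control pool. With ratios of -0.69 and -0.27 and a mean of -0.48, it was 1.39-fold lower in the trained pool and second only to ccna2 among the members. However, kif11 rested on 1 probe and was not lower on both arrays with median centring.

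The cytokinesis kinesin gene kif23 had a mean of -0.42, which rested on array 2. There its intensity was 2331 in the trained pool and 4148 in the control pool, while array 1 gave 2697 and 2702. The 3 other probes of kif23 had means of -0.36 to -0.20. The microtubule-bundling gene nusap1 was lower on both arrays with all 3 probes, with means of -0.39 to -0.28. Its brightest probe gave 569 and 703 in the trained pool against 747 and 837 in the control pool. With median centring nusap1 was not lower on both arrays. For kif20a, another cytokinesis kinesin, the trained pool gave 290.4 and 282, against 342 and 322 in the control pool, and both probes had means of -0.21. The kinesin gene kif2c, whose product takes microtubules apart, was opposite at 0.15 and -0.77, with 679 and 593 in the trained pool and 613 and 1008 in the control pool.

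Of the chromosomal passenger complex, which corrects wrong kinetochore attachments, cdca8 and birc5a were measured. Both were lower on both arrays, as were 22.1% of all genes. The survivin gene birc5a gave 1129 and 1130 in the trained pool, against 1428 and 1369 in the control pool. The ratios of birc5a were -0.34 and -0.28, and its second probe was not well above background. For the borealin gene cdca8 the ratios were -0.06 and -0.49, with 2000 and 1811 in the trained pool and 2088 and 2551 in the control pool. The 4 probes of cdca8 had means of -0.28 to -0.10. Their kinase partner aurkb, described above, had no settled direction.

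The activator of anaphase, cdc20, was lower on both arrays with all 3 of its probes. Its brightest probe gave 425 and 464 in the trained pool, against 572 and 559 in the control pool, for ratios of -0.43 and -0.27 and a mean 1.27-fold lower. The ubiquitin-conjugating enzyme gene ube2c, which serves the same ligase, stood at -0.38 and -0.10. Its intensities were 5716 and 5582 in the trained pool and 7448 and 5965 in the control pool. Thus both measured genes of anaphase promotion had trained values below control values on each array, as had 22.1% of all genes. With median centring ube2c was not lower on both arrays.

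As in the cyclin and kinase, checkpoint and spindle groups, the calls among cohesin and condensin genes depended on the processing. Of 7 measured, 2 were lower on both arrays as reported, or 28.6%, beside 22.1% of all genes. None was higher, beside 24.3% of all genes, and 5 were opposite, beside 53.6%. The mean was below 0 in 6 of the 7, beside 5642 of 11121 genes. The median was -0.23 on the mean of the arrays, 0.01 on array 1 and -0.33 on array 2. Under the deposited ratios, where 26.0% of all genes were lower, smc2 and smc4 were lower as well. Over the mean of probes, with 24.4% of all genes lower, ncapd2, rad21a and smc2 were. With median centring smc3 lost the call, while ncapd2 and smc4 gained it. The lower members as reported were esco2, the acetyltransferase that locks cohesin onto sister chromatids, and smc3, a core subunit of the cohesin ring. For esco2 the trained pool gave 1052 and 1209, against 1400 and 1521 in the control pool, and the ratios were -0.41 and -0.33. The ring subunit gene smc3 had 813 and 1074 in the trained pool and 997 and 1204 in the control pool, with ratios of -0.29 and -0.17.

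In the other cohesin genes the direction differed between the arrays, on which the dyes were exchanged. For smc1al the ratios were 0.47 and -0.81, the widest gap of any member, with intensities of 1608 and 1166 in the trained pool and 1165 and 2044 in the control pool. Its signal was thus higher in Cy5 on both arrays. The cleavable cohesin subunit gene rad21a stood at 0.20 and -0.23, with 2871 and 2232 in the trained pool and 2495 and 2610 in the control pool. Its other probes stood at 0.00 and -0.23, and at -0.28 and 0.18, the last in the reverse order. All 3 measured condensin genes were opposite as well in the reported processing. Under the deposited ratios smc2, at -0.21 and -0.04, and smc4, at -0.25 and -0.20, were lower on both arrays. Without background correction ncapd2 was lower on both arrays too. For smc4, a core subunit, the trained pool gave 5366 and 5091, against 5184 and 7603 in the control pool, for ratios of 0.05 and -0.58. The regulatory subunit gene ncapd2 had 471 and 419.9 in the trained pool and 467 and 584 in the control pool, for ratios of 0.01 and -0.48. In smc2, the other core subunit gene, the dye order was reversed, with 1202 and 1154 in the trained pool, 1235 and 1062 in the control pool, and ratios of -0.04 and 0.12. The second probe of smc4 had a mean of 0.02, and the 3 other probes of smc2 had means of -0.19 to -0.12, so no direction is given for these members.

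**Figure D2:**
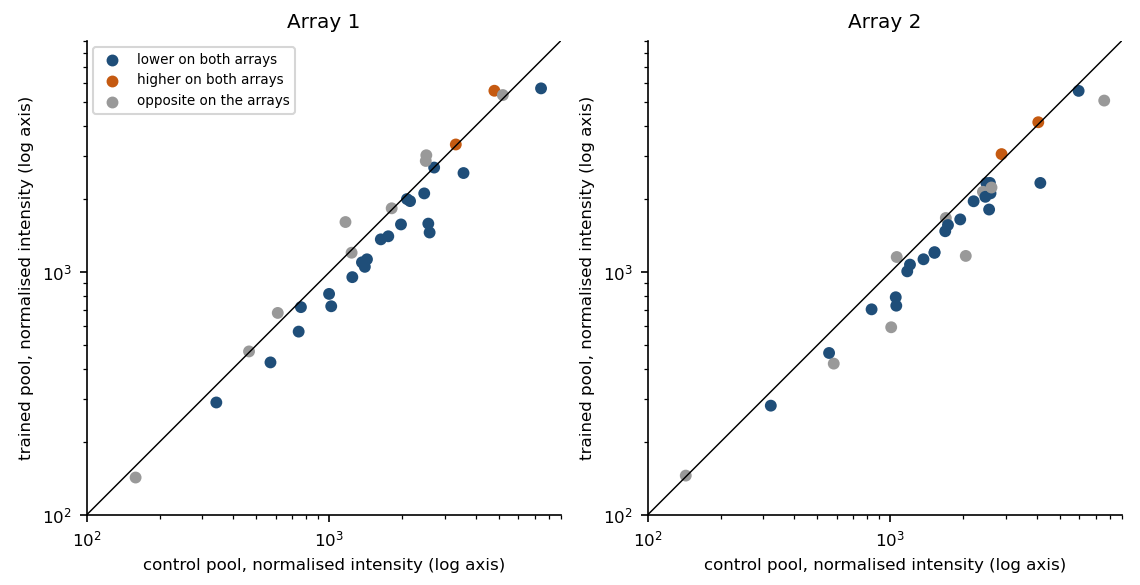
Normalised intensity of each measured member in the trained pool (vertical, log axis) and the control pool (horizontal, log axis), on array 1 and array 2, with the line of equal intensity. Of the members, 21 lie below the line on both arrays (dark blue), 2 above it on both (orange) and 9 change sides (grey).

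The size of the dye component was set beside that of the pool difference. The dye component of a gene is the mean of its Cy5 over Cy3 ratios on both arrays, in which a difference between pools cancels. On 2 arrays a dye effect of a gene cannot be told apart from other differences between the arrays. Over the members its median was -0.04, with 19 below 0 and 13 above 0, while the median over all genes was -0.02. In size the dye component exceeded the trained over control ratio in 9 members, the same number as the members that were opposite on the arrays, since by construction these criteria pick the same genes. Of these 9, 7 were above 0 on array 1 and below 0 on array 2, which is the direction of Cy5. Over all measured probes, array 1 and array 2 were related by a Pearson r of -0.04 (0.11 under the deposited ratios). Across the 32 members Pearson's r was -0.25 and Spearman's rho -0.05. These points share both pools and both arrays. The direction rests on the dyes in the sample titles, channel labels and labelling protocol, which give a swap, whereas the study's design text gives 1 orientation for both arrays.

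Different probes of a gene were read in the same pools and arrays, so they are not independent of each other. The 32 members had 74 measured probes, of which 45 were lower on both arrays, 2 were higher and 27 were opposite, with a median ratio of -0.20. The lower share was 60.8% of member probes, beside 23.1% of the 20549 measured probes with a gene name. Of those 20549 probes 23.4% were higher on both arrays. Of 21 members with several measured probes, 16 had every probe mean below 0, 5 had probes of both signs and none had all above 0. Every probe mean was below 0 in 76.2% of these members, beside 29.9% of the 6037 genes with several measured probes. Over those genes 43.3% had probes of both signs and 26.7% had all above 0. The 5 members with probes of both signs were ccnb2, ccnd1, nuf2, smc2 and smc4. The brightest probe had the lowest mean in 14 of the 21 and the highest in 4, so the size of the ratio depended on the probe chosen, and averaging the probes gave a median over members of -0.18. The median standard deviation between probes of a gene was 0.07 over members and 0.09 over those 6037 genes. Probe sequences were not used here, so cross-hybridisation between related genes was not tested.

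**Figure D3:**
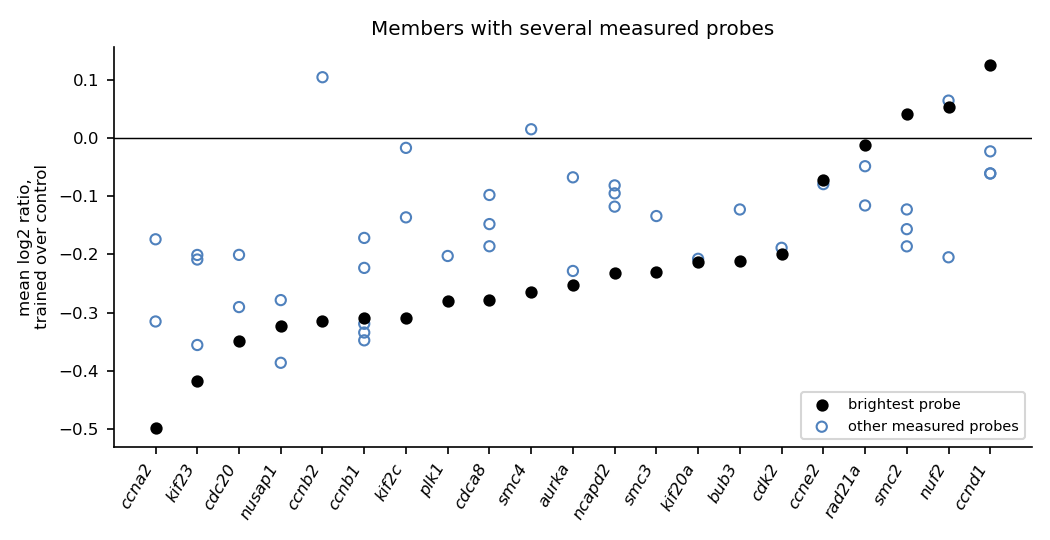
Mean log2 ratio of trained over control (both arrays) for every measured probe of the 21 members with several measured probes, with the brightest probe in black and others as open circles. In 16 members all circles lie below 0, and in ccnb2, ccnd1, nuf2, smc2 and smc4 they lie on both sides.

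Lower members were found among both the dimmer and the brighter members, whose intensities ran from 148 to 6178. The 16 dimmer members had a median ratio of -0.30 and 11 were lower on both arrays. Among the 16 brighter members the median was -0.25 and 10 were lower on both. Over all measured genes, of any brightness, 22.1% were lower on both arrays. The share among genes of like brightness was not counted.

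A wider list of mitosis genes held 95 further genes, of which 72 were measured. Of these, 39 were lower on both arrays, 5 were higher and 28 were opposite, with a median ratio of -0.15. The shares were 54.2% lower and 6.94% higher, beside 22.1% and 24.3% of all genes. By the 1.2-fold rule 6 were lower, or 8.33%, beside 1.35% of all genes. None was higher by that rule, beside 3.74% of all genes. The condensin subunit gene ncaph stood at -0.56 and -0.41 on the arrays, with 385 and 455 in the trained pool and 567 and 606 in the control pool. The spindle pole gene aspm, known for its role in brain growth, had 735 and 795 in the trained pool, against 950 and 1013 in the control pool, and ratios of -0.37 and -0.35. The nuclear lamina gene lmnb1 had 1075 and 1087 in the trained pool and 1353 and 1441 in the control pool, for ratios of -0.33 and -0.41. The tubulin gene tubb2b had 28499 and 30464 in the trained pool and 38712 and 45863 in the control pool, for ratios of -0.44 and -0.59. In ncaph, aspm, lmnb1 and tubb2b alike the brightest probe had the lowest mean of its gene's probes. The highest probe mean was -0.24 in ncaph, -0.11 in aspm, -0.18 in lmnb1 and -0.08 in tubb2b. The product of tubb2b is a structural protein of microtubules in neurons, so this gene is not restricted to dividing cells. The list's highest gene, the cohesin regulator gene pds5a, had a mean of 0.19, with probes of both signs.

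Genes of DNA replication, which act in the preceding phase of the cycle, are given beside them. Of 45 measured, 15 were lower on both arrays, 4 were higher and 26 were opposite, with a median of -0.10. The shares were 33.3% lower and 8.89% higher, beside 22.1% and 24.3% of all genes. The members' counts of 21, 2 and 9 and their median of -0.26 stand beside these values, and the difference was not tested. By the 1.2-fold rule 2 replication genes were lower, the helicase subunit genes mcm4 and mcm5, and none was higher. The lower share was 4.44%, beside 1.35% of all genes. For mcm5 the trained pool gave 3163 and 2907, against 3856 and 5162 in the control pool, for ratios of -0.29 and -0.83. The intensities of mcm4 were 2097 and 2747 in the trained pool and 3213 and 3417 in the control pool, but 1 of its 4 probes had a mean of 0.10.

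Genes that restrain the cycle or act at exit from it had no shared direction. Of 19 measured, 4 were lower on both arrays, 6 were higher and 9 were opposite, with a median of 0.04. The shares, 21.1% lower and 31.6% higher, stand beside 22.1% and 24.3% of all genes. By the 1.2-fold rule 5.26% were higher, beside 3.74% of all genes. The only one to pass that rule was gadd45ba, a stress-induced growth arrest gene, which was higher. It gave 608 and 781 in the trained pool, against 447 and 338 in the control pool, for ratios of 0.44 and 1.21, and its second probe had a mean of 0.69.

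**Figure D4:**
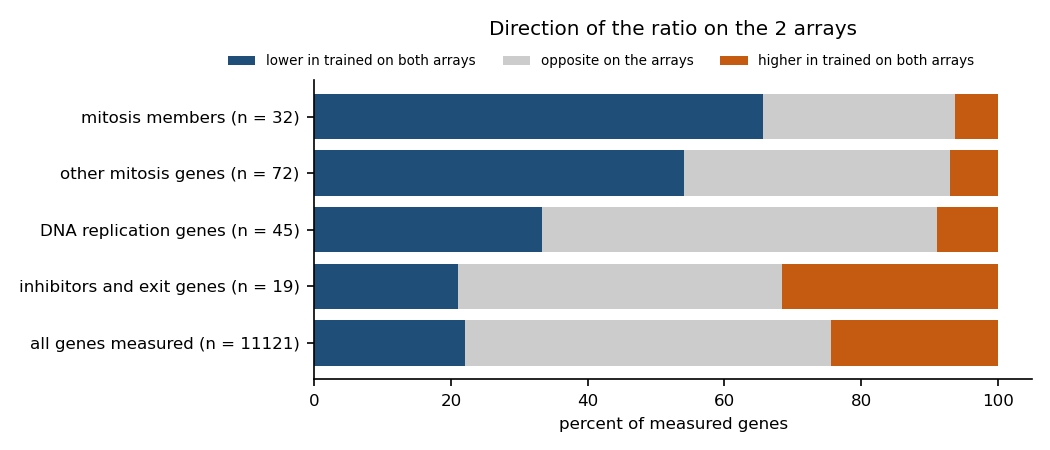
Percent of measured genes lower in the trained pool on both arrays, opposite on the arrays, and higher on both, for the members, the other mitosis genes, the DNA replication genes, the inhibitors and exit genes, and all measured genes. The lower share is 65.6% in the members and 22.1% over all genes.

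Markers of cell populations in which larval cells divide were listed to be read beside the mitosis genes. Over all measured genes 22.1% were lower on both arrays, 24.3% were higher and 1.35% were lower by the 1.2-fold rule. Of 19 measured retinal and neural progenitor markers, 5 were lower on both arrays, 7 were higher and 7 were opposite, with a median of -0.05, and 1 of them, ccnd1, is also a member. Their summed intensity was 62848 and 69600 in the trained pool, against 62048 and 117409 in the control pool, and most of the gap on array 2 came from fabp7a, a radial glia gene, with 52982 in the trained pool and 99556 in the control pool. The progenitor repressor gene her9 alone passed the 1.2-fold rule, at -0.30 and -0.53, with 2202 and 2179 in the trained pool and 2710 and 3156 in the control pool. The sum moved on 1 array only, and the markers' part in the members' ratios was not tested.

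Blood progenitor and erythroblast markers had 2 lower, 3 higher and 5 opposite of 10 measured, with a median of 0.00. For this and the following lists, the shares over all genes were 22.1% lower and 24.3% higher. Their summed intensity was 163978 and 146582 in the trained pool and 145732 and 175811 in the control pool. The globin gene hbae1.1 gave nearly all of it. This sum was higher in Cy5 on both arrays, as was the sum over all measured genes. Over all genes it was 4.59e+07 and 4.12e+07 in the trained pool, against 4.12e+07 and 4.55e+07 in the control pool. Of 9 intestinal and liver progenitor markers none was lower on both arrays and 5 were higher, with a median of 0.15 and summed intensities of 3658 and 3906 in the trained pool, against 3432 and 3260 in the control pool. These regulators also stay on in differentiated gut and liver. The 5 measured lens epithelium and fibre markers included 3 lower and 1 higher, with a median of -0.14 and sums of 4166 and 3821 in the trained pool and 4535 and 5011 in the control pool. Only 4 of 10 germ cell markers on the array were well above background, with sums of 698 and 718 in the trained pool and 626 and 765 in the control pool. Their part in the members' ratios was not tested.

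The label of whole larvae was checked against markers of differentiated tissues. All 14 with a probe were measured, from liver, gut, muscle, eye, blood, cartilage, skin, brain and pancreas. On both arrays 5 were higher, none was lower and 9 were opposite, with a median of 0.07. The higher share was 35.7%, beside 24.3% of all genes, and 22.1% of all genes were lower. Their summed intensity was 955021 and 894508 in the trained pool, against 863807 and 958713 in the control pool. This sum was higher in Cy5 on both arrays, as was the sum over all measured genes. Of these markers hbae1.1 is also in the blood list and cryaa in the lens list, and their part in the members' ratios was not tested.

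The direction of the members was set against other ways to process the arrays. All 21 members that were lower on both arrays kept a mean ratio below 0 in each of the 8 alternatives that used both arrays. These 21 were picked by that direction and the alternatives reuse the same arrays, so a kept sign was likely beforehand. The share of all lower genes that kept their sign or call was not counted. Not all of the 8 could differ for the members. The series value table repeats the deposited ratios, and a looser or no detection filter left every member's value unchanged. The call itself, which needs both arrays below 0, was less stable and held in all 8 for 9 members: birc5a, ccnb2, cdc20, cdca8, esco2, kif20a, kif23, ttk and zwilch. Median centring ended it for 11, which were aurka, ccna2, ccnb1, cdk2, kif11, mad2l1, ndc80, nusap1, plk1, smc3 and ube2c. The deposited ratios ended it for cdk2 and bub3, and the mean over probes for bub3. Other members gained the call: cdk1 and ncapd2 without background correction, and ncapd2 and smc4 with median centring. The deposited ratios added aurkb, ccne2, kif2c, smc2 and smc4, and the mean over probes added ccne2, ncapd2, rad21a and smc2. Among the 21 the range of the mean ratio over the alternatives was narrowest in mad2l1, from -0.16 to -0.10, and in cdk2, from -0.21 to -0.14. Even so, cdk2 lost its call with median centring and under the deposited ratios. The range was widest in ccnb2, from -0.34 to -0.10, and in ccnb1, from -0.45 to -0.24. For zwilch it ran from -0.48 to -0.39 and for ccna2 from -0.51 to -0.33. Both members that were higher on both arrays, aurkb and ccnd1, changed sign in an alternative, as did 4 of the 9 opposite members. The share of members lower on both arrays ran from 37.5% with median centring, where 12.6% of all genes were lower, to 75% under the deposited ratios, where 26.0% of all genes were.

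**Figure D5:**
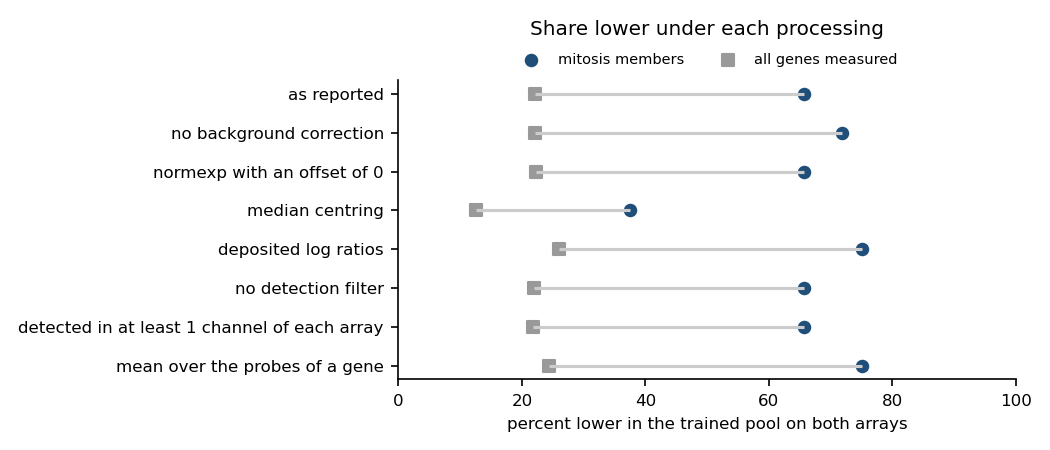
Percent of the 32 measured members (circles) and of all measured genes (squares) that were lower in the trained pool on both arrays, as reported and under the alternatives that used both arrays, without the series value table, which repeats the deposited ratios. The members lie between 37.5% and 75%, and all genes between 12.6% and 26.0%.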

How the data were processed

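Pooled RNA of 10 trained and 10 control larvae (400 ng per fish, 100 ng labelled) was compared on 2 arrays. Per the file headers, Feature Extraction gave the median foreground and background intensity of each spot in both channels, and marked spots that were outliers, saturated or clearly over background. Per the submitters' processing notes the version of Agilent Feature Extraction was 10.5.1.1. The deposited log10 ratio is Cy5 over Cy3 after that software's background and dye steps, and the deposited series value table holds these log10 values with array 2 turned in sign.

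Ratios were rebuilt with limma 3.58.1 in R 4.3.3: normexp background correction with an offset of 50, loess within each array with control and outlier spots at weight 0, sign of array 2 turned, spots of a probe averaged and the arrays averaged as 1 replicate. Intensities per channel were scaled between arrays on the mean brightness (Aquantile). The offset compresses ratios of dim probes. Median spot signals were 178.5 (trained) and 137.5 (control) on array 1, and 136 and 155.5 on array 2. No spot was saturated, and the number of arrays limits the precision. Of 43600 probes with unflagged spots, 30886 were well above background in all 4 channels. Unversioned accessions named 25171 probes through a RefSeq table of assembly GRCz12tu, which is not the build of the array design, so no coordinates are given. Tables were handled in Python 3.11.15 with pandas 2.3.3. The normalisation was also run on simulated arrays with a dye curve over brightness and independent spot noise. That simulation held no dye effect of single genes, so it cannot show how the steps handle one.

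Members and lists were chosen with earlier results of these data known. Named genes were the 2 lowest and the highest member of each role group, members past 1.2-fold or higher on both arrays, members whose probes differed in sign, and up to 4 genes per direction of the other lists past 1.2-fold. Other members are given for completeness. A planned count of promoter motifs was not run, as promoter sequence was not used here.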

Additional observations from a re-analysis of the deposited data

How the results depend on the processing

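With 1 pool per condition these values show processing, not spread between fish. No paired analysis was possible because both arrays carry 1 trained and 1 control pool. The median ratio over the members (-0.26 as reported) was -0.26 without background correction, -0.27 with an offset of 0, -0.20 with median centring, -0.25 under the deposited scanner ratios and their series value table, and -0.18 over the mean of a gene's probes, with -0.23 on each array alone. Median centring gave 12 members lower on both arrays, or 37.5%, beside 12.6% of all genes. Of the 12, 10 were among the 21 reported, and 0 members passed the 1.2-fold rule. Without median centring 19 of the 21 kept their call in every other alternative on both arrays, as did 2 of the 6 members past the 1.2-fold rule. The same shares over all genes so called were not counted. Members higher on both arrays numbered 1 under both sets of deposited ratios, beside 25.1% of all genes, and 1 over the mean of probes, beside 25.7%. On single arrays fewer conditions apply. On array 1 alone 9 members were higher, 14 at least 1.2-fold lower and 2 at least 1.2-fold higher. The shares over all genes there were 49.7%, 15.6% and 15.2%. On array 2 alone the counts were 4, 14 and 0, beside 52.6%, 13.3% and 16.1% of all genes. At least 1.5-fold lower on a single array were 2 to 3 members, and the share over all genes is not given here.

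The median of the other mitosis genes was -0.10 with median centring, -0.19 under both sets of deposited ratios and -0.14 over mean probes, and -0.15 to -0.14 on single arrays. For DNA replication genes it was -0.037 with median centring and -0.067 to -0.054 on single arrays. Inhibitors and exit genes (0.04 as reported) gave 0.047 with an offset of 0, 0.064 with median centring, 0.065 over mean probes and 0.0053 to 0.019 on single arrays, and turned to -0.018 under both sets of deposited ratios. By gene, ccnd1 turned to -0.0046 over mean probes and aurkb to -0.12 under both sets of deposited ratios. The cause of these changes was not tested. The remaining alternatives, a looser or no detection filter, kept the members' counts as reported.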
